A study of Mus musculus with 250 samples.

Results

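Lrig1-lineage epidermal cells from a wound bed were compared with cells of the same lineage from a control region of mouse tail skin. The members were all cells that the labels place in the wound bed region or in the control region, which gave 169 of the 250 cells of the series. Of these, 85 came from the wound bed (30 in batch 1 and 55 in batch 2) and 84 from the control region (28 and 56). All cells carried the genotype Lrig1CreER/Rosa-TdTomato, in which an inducible Cre recombinase made under the Lrig1 promoter switches on a red reporter. The reporter marks cells that express Lrig1 at the time of induction and their progeny. Both regions were sampled at the same time, 8w_pw1 in the labels (8 weeks, with the rest of the code not spelled out), and the labels call the control region non-memory. Cells bearing Sca1, the surface protein encoded by Ly6a, were sorted to enrich for cells of the upper hair follicle. Each cell was then sequenced on its own by Smart-Seq2, a full-length RNA method without molecular identifiers.

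A plate never mixed regions or batches. Region and plate effects within a batch therefore cannot be told apart. The labels name no animal, each region therefore counts as 1 sample, and no test was run. Reads were summed per plate and scaled to CPM (reads relative to the plate total, after TMM scaling). A log2 ratio of CPM plus 1, wound bed over control, was taken within each batch, and pairs of ratios below give batch 1 and then batch 2. A gene was considered if, in each batch, 10% or more of the cells of either region carried a read. The region that passed could differ between the batches. A considered gene met the size rule if both ratios were at least 1 in size (2-fold) with the same sign. The ratio understates the change of genes near 1 CPM. In such sums, fewer cells with a transcript and less of it per cell cannot be told apart, so shares of cells with a read are given too, with exact 95% binomial intervals that cover counting error alone.

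The upper hair follicle holds the duct and infundibulum, the funnel that joins the follicle to the surface epidermis. Lrig1-positive stem cells keep up this compartment and the sebaceous gland in undisturbed skin, and after wounding their progeny move into the surface epidermis and help close it. The surface epidermis has a basal layer, marked by Krt5 and Krt14, and suprabasal layers, marked by Krt1 and Krt10, in which cells build the cornified barrier. Stefins A are small cytoplasmic inhibitors of cysteine proteases that are made in stratified epithelia, and the mu-class glutathione transferases (Gstm) join glutathione to reactive compounds.

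Total reads were 1751116 and 2898446 in the wound bed plates and 4481121 and 4029606 in the control plates, and cells held 3857 to 451681 reads. Krt14, which defines keratinocytes of the basal epidermis and follicle, was read in 88.2% of wound bed and 89.3% of control cells. No marker of T cells, Langerhans or myeloid cells, melanocytes, fibroblasts, endothelial cells, Merkel cells or erythroid cells passed the 10% filter. Some of their genes had no read in any of the 4 plates, Cd3e, Cd207, Pmel, Col1a1, Cdh5 and Krt20 among them, while others had reads in a few cells. Myeloid markers (5 of 8 with a read) were read in 7 cells and reached 910.2 CPM in 1 of them. Fibroblast markers (2 of 6) were read in 8 cells, 5 of them in control batch 1, with up to 681.9 CPM. Endothelial markers (2 of 5) were read in 4 cells, with up to 578.5 CPM. Summed marker levels were at most 8.91 CPM per plate for each type, apart from fibroblast genes at 95.2 CPM in control batch 1. Transcripts of 4 repeat-like predicted genes (Gm10800, Gm10801, Gm21738 and Gm10717) made up more than 5% of the nuclear-encoded reads in 18 of 28 control cells of batch 1 and 5 of 56 of batch 2. The same held for 0 of 30 and 1 of 55 wound bed cells. Named genes that lost their call without these repeat-rich cells are given with the values that remained.

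Control cells were more often basal by their keratins. Krt5 and Krt14 reads together exceeded Krt1 and Krt10 reads in 45 of 85 wound bed cells (52.9%, 41.8 to 63.9%) against 65 of 84 in control (77.4%, 67 to 85.8%). By plate the counts were 15 of 30 and 30 of 55 against 23 of 28 and 42 of 56. In all, 11 cells lay within 2-fold of this line, and comparisons among basal cells below use it. The other differences were also computed in the basal cells alone. The line does not remove cells with follicle transcripts. Krt79, a keratin of the follicle's duct, had a read in 25 of the 65 basal cells from control. For the 45 basal cells from the wound bed this number was 7. Basal cells of the regions thus still differed in make-up, and the part of cell mix in the other differences was not tested.

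Stefin A transcripts were higher in the wound bed in both batches, and the mouse genes lie in a cluster on chromosome 16 (Stfa1 at chr16:36276951-36285373 and Stfa3 at chr16:36450537-36455392 in GENCODE M21, GRCm38). Promoter stretches are shown because the 3 most abundant members share 8 letters close to their start sites, as do some members with few or no reads. Each line gives 30 bases, 5′ to 3′ on the gene's strand, from RefSeq on GRCm38.p6, with the letters TTTAAAAC in capitals.
Stfa1 (chr16:36277104-36277133, plus strand): agctttcggataccTTTAAAACcctgagtc
Stfa3 (chr16:36455408-36455437, minus strand): gcttacagataaccTTTAAAACcccgagtc
Cstdc5 (chr16:36367571-36367600, minus strand): gaggaggagtttacagataccTTTAAAACc
Cstdc4 (chr16:36184169-36184198, plus strand): agtttacagataccTTTAAAACcctgactc
Stfa2 (chr16:36408377-36408406, minus strand): agcttacagaaaccTTTAAAACcctgagtc
The capital letters lie 30 bases before the RefSeq start of Stfa1, 31 before that of Stfa3 and 9 before that of Cstdc5. GENCODE starts Stfa1 upstream of the stretch shown. On both strands of the 250 bases before each start, they were found in 7 of the 10 family members with an entry and in 1.59% of all 32851 promoters. The letters were picked because members of this family share them, so the family count is not a test of enrichment. A match of letters is a description and not a binding site. Csta1 has no match in this window, and Cstdc6 has no entry. Cstdc4 and Stfa2 carry the letters and had few reads: Cstdc4 had 6 and 26 reads in the wound bed plates and 0 in both control plates, and Stfa2 had 4 reads in all, in 1 wound bed cell.

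All 5 stefin A genes that passed the filter met the size rule upward. Over all 5776 genes considered, 7.88% met it upward (455 genes) and 8.28% downward (478). Cstdc5 was the most abundant, at 6768 and 3865 CPM in the wound bed plates and 71.4 and 147 CPM in the control plates (log2 ratios 6.55 and 4.71). Stfa3 stood at 3235 and 3401 CPM against 117 and 128 CPM (4.78 and 4.72). Stfa1 stood at 575 and 545 CPM against 2.06 and 12.4 CPM (7.56 and 5.35). Both wound bed plates lay far above both control plates for these genes. Csta1 was lower in abundance, at 251 and 255 CPM against 30.6 and 17.8 CPM (3.0 and 3.77). Cstdc6 had 24 and 28 reads in the wound bed plates and 1 and 6 in the control plates, and in cells with at least 2000 genes it missed the rule (1.66 and 0.74). Csta1 and Stfa1 share 0.611% and 2.39% of their 31-base words with other stefin A genes in GENCODE transcripts and Stfa3 shares none. Cstdc5 and Cstdc6 could not be matched there, so how the authors' counting split reads between these 2 and their neighbours is uncertain. Of the other cystatins on the list, Cst6, which is made in the upper follicle, was lower (-2.43 and -1.27), with 86.7% of its wound bed reads of batch 2 in a single cell. Without the deepest cell of each plate it stood at -2.26 and -0.88.

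The stefin difference was spread over most cells. At least 2 of the 5 genes had a read in 28 of 30 and 48 of 55 wound bed cells, and in 8 of 28 and 9 of 56 control cells. For both batches together this was 89.4% (80.8 to 95%) in the wound bed and 20.2% (12.3 to 30.4%) in control. At 10000 reads per cell the shares were 75.6% of 78 and 12% of 83 cells. The median wound bed cell held 2676 and 2670 CPM of Cstdc5 in the 2 batches, while the median control cell held 0 in both. Within control batch 1, 92.2% of all Cstdc5 reads came from 1 cell. The difference was seen in basal cells as well as in the others. Cstdc5 had a read in 38 of 45 basal wound bed cells and 9 of 65 basal control cells, and in 35 of 40 and 7 of 19 of the remaining cells. Stfa1 had a read in 18 of 45 and 1 of 65 basal cells, and in 29 of 40 and 4 of 19 others.

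**Figure D1:**
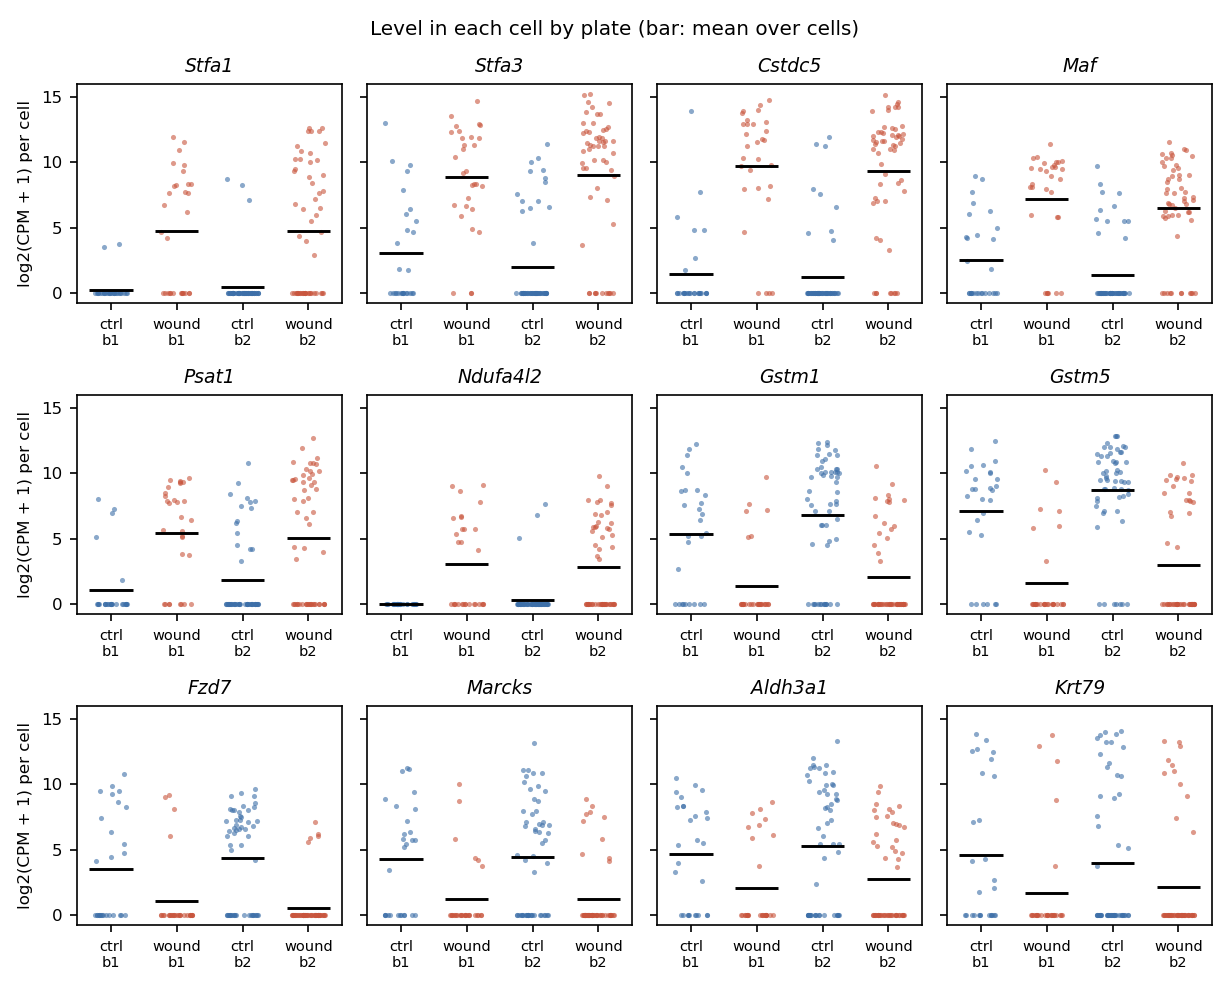
Each point is 1 cell, with its level as log2(CPM + 1) on the vertical axis and the plate on the horizontal axis (ctrl, control; wound, wound bed; b1 and b2, batches 1 and 2); bars are means over cells. Stfa1, Stfa3, Cstdc5, Maf, Psat1 and Ndufa4l2 were detected in more wound bed cells and Gstm1, Gstm5, Fzd7, Marcks, Aldh3a1 and Krt79 in more control cells, in both batches.

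Across all genes, 933 of 5776 (16.2%) met the size rule in either direction, and 678 (11.7%) were at least 2-fold apart in opposite directions in the batches. Of the genes that met the rule, 48.8% were higher in the wound bed, and 61.2% when repeat-rich cells were left out (665 higher and 421 lower). Genes were ranked by the smaller of their batch ratios after adding 2 criteria. Within both batches, 25% or more of the cells had to carry a read in the region where the gene was higher, and the shares of cells and the mean levels per cell had to differ the same way. With these, 87 genes (1.51%) were higher and 90 (1.56%) lower, or 3.06% in either direction. Most of the first 25 genes in each direction are described below with members of gene lists chosen with earlier results of these data known. Besides each batch alone, which such genes pass by construction, 12 alternatives were run for the 25 higher genes and for 24 of the lower ones. In all 12, 14 of the higher and 15 of the lower genes met the size rule. Those higher were the 4 stefins Stfa1, Stfa3, Cstdc5 and Csta1, with Ly6c1, Popdc3, Rora, Maf, Psat1, Ndufa4l2, Smim15, Hlf, Rnf145 and Ndufaf4.

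**Figure D2:**
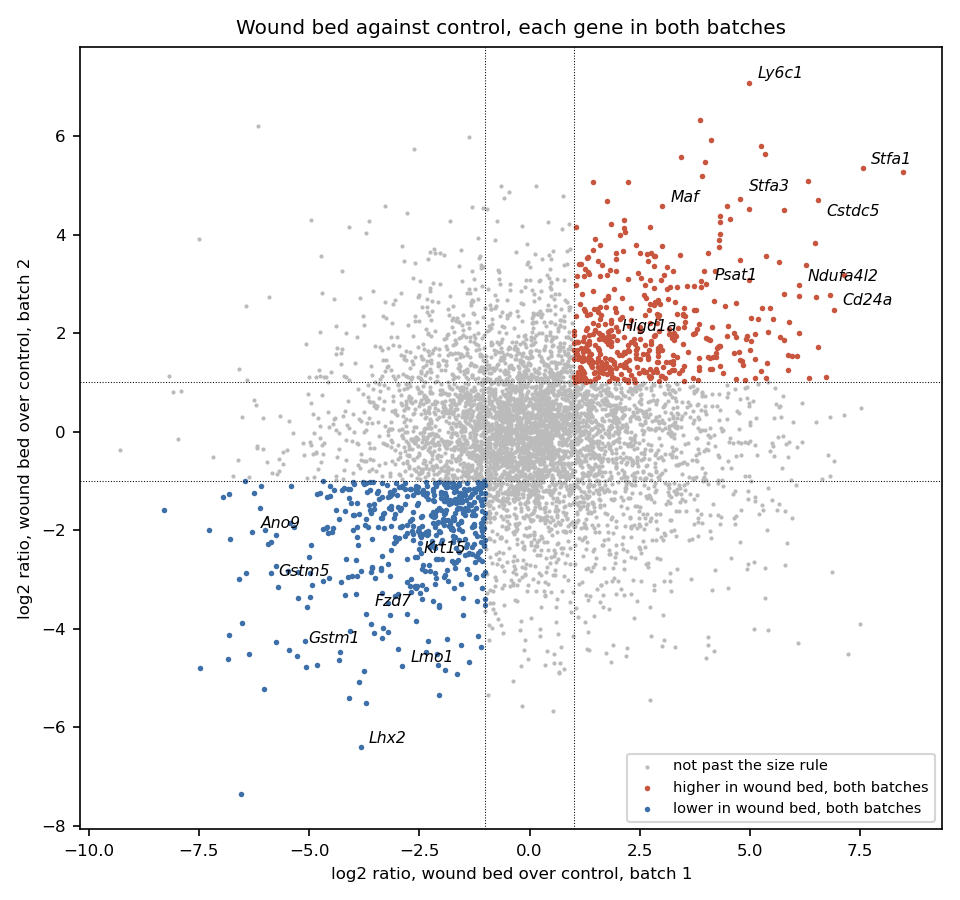
Each point is 1 of 5776 genes, with its log2 ratio of wound bed over control in batch 1 (horizontal) and batch 2 (vertical); dotted lines mark the size rule. The 455 higher genes lie at the upper right and the 478 lower genes at the lower left, and a further 678 genes lie beyond the lines in opposite directions.

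The genes for the surface proteins Ly6a, Ly6c1 and Cd24a were higher in the wound bed. Ly6a, which encodes the Sca1 used for the sort, stood at 540 and 621 CPM in the wound bed plates and 153 and 161 CPM in the control plates (log2 ratios 1.81 and 1.94). Its share of cells with a read was 75.3% (64.8 to 84%) in the wound bed and 32.1% (22.4 to 43.2%) in control, although all cells had been sorted for the protein. In cells with at least 2000 genes the ratios were 0.61 and 1.61, so that Ly6a no longer met the rule. Ly6c1, of the same family and also on chromosome 15 (Ly6a at chr15:74994877-74998031, Ly6c1 at chr15:75044018-75048830), had 118 and 521 reads in the wound bed plates and 4 and 1 in the control plates. In batch 2 the ratio was 786-fold, with a counting interval from 140.5 to 31120 that reflects the single control read. Cd24a, a small glycosylated surface protein, stood at 652 and 424 CPM against 4.41 and 75.2 CPM.

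Among transcription factors, Maf, Rora and Hlf were higher. Maf, a large Maf protein with a role in epidermal differentiation, stood at 626 and 553 CPM in the wound bed and 77 and 22.2 CPM in control (3.01 and 4.58). A read was found in 24 of 30 and 44 of 55 wound bed cells and in 13 of 28 and 12 of 56 control cells. Among basal cells the counts were 35 of 45 against 18 of 65. Rora, a nuclear receptor, stood at 240 and 419 CPM against 12 and 42.7 CPM. Hlf, a bZIP factor of the PAR family, stood at 98.6 and 130 CPM against 11.8 and 20.7 CPM, but 1 cell held 55.2% of its wound bed reads in batch 2.

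Metabolic genes that were higher included several mitochondrial and hypoxia-linked ones. Ndufa4l2, a hypoxia-induced relative of a respiratory chain subunit, had 119 and 105 reads in the wound bed and 0 and 16 in control, and was at least 77.4-fold higher in batch 1 by a floor of 3 counts. It was read in 26 of 45 basal wound bed cells and 2 of 65 basal control cells. Higd1a, another hypoxia-induced mitochondrial protein, stood at 209 and 230 CPM against 55.2 and 58.9 CPM (1.90 and 1.95), and at 0.89 and 2.18 with each cell given the same weight. Of 13 hypoxia genes considered, these and Bnip3, which acts in removal of mitochondria, met the rule upward. Ndrg1 met it downward, and the medians of 0.44 and 0.63 compare with 0.03 and -0.03 for all genes. Without repeat-rich cells Bnip3 stood at 0.22 and 2.47 and Ndrg1 at 3.76 and -1.65. In cells with at least 2000 genes Bnip3 stood at 1.57 and -1.41. Of 14 glycolysis genes none was higher and Ldhb, a lactate dehydrogenase subunit, was lower (-2.91 and -1.94). Ndufaf4, an assembly factor of complex I, was higher (2.75 and 1.85). The 41 nuclear-encoded subunits of the respiratory chain had medians of 0.04 and -0.24, and those that met the rule included Ndufa5, which was higher, and Ndufb8 and Ndufv1, which were lower.

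Psat1, the second enzyme of serine synthesis, stood at 274 and 505 CPM in the wound bed and 16.2 and 62.2 CPM in control (4.0 and 3.0). The share of cells with a Psat1 read was 63.5% (52.4 to 73.7%) in the wound bed and 23.8% (15.2 to 34.4%) in control. Slc1a4, which carries serine and alanine across the membrane, had 65 and 212 reads in the wound bed and 0 and 1 in control, in 17.6% and 1.19% of cells. Of 13 serine enzymes, ATF4 targets and amino acid carriers considered, Psat1 and Slc1a4 met the rule upward, and Shmt1, which interconverts serine and glycine, met it downward. Shmt1 stood at 3.76 and -1.58 without repeat-rich cells and at -0.03 and -2.07 at 10000 reads per cell. Of 15 genes for cholesterol synthesis and uptake, Idi1 (2.54 and 3.12), Sc5d, Cyp51 (1.45 and 1.97) and Hmgcs1 (1.01 and 1.47) met the rule upward. Hmgcs1 met it in only 4 of the 12 alternatives. It was at 0.98 and 1.52 under DESeq2 size factors, at 0.37 and 1.44 with equal weight per cell and at -0.07 and 2.7 in basal cells. Sqle, squalene epoxidase, met it downward, with 74.1% of its control reads of batch 1 in 1 cell. The medians of this list were 0.15 and -0.18. Acsl1, which activates long-chain fatty acids, was higher (1.84 and 1.83) in all cells but stood at -1.57 and -0.10 in basal cells.

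Of 3 metallothioneins considered, which bind zinc and copper, Mt2 and Mt4 met the rule upward and Mt1 (1.66 and 0.85) did not meet it. Mt2 stood at 668 and 626 CPM against 122 and 192 CPM (2.44 and 1.70), with a read in 42 of 45 basal wound bed cells and 32 of 65 basal control cells. Mt4, the member made in differentiating stratified epithelium, stood at 2351 and 955 CPM against 193 and 312 CPM. It was read in 28 of 45 basal wound bed cells and 8 of 65 basal control cells, and in 37 of 40 and 13 of 19 others. Protease inhibitors of serpin clade B included Serpinb3b (4.08 and 1.86) and Serpinb2 (2.02 and 1.55), the 2 of 7 members that met the rule, both upward. In basal cells Serpinb3b stood at 6.25 and -0.68. Plau, the urokinase that Serpinb2 inhibits, had 43 and 43 reads in the wound bed and 1 and 16 in control.

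Genes that keratinocytes switch on during wound closure were mostly too sparse to compare, since 7 of the 29 on the list passed the filter. Of these, Plau, Serpinb2 and Il33, a nuclear alarmin, were higher, and Itgav, an integrin chain, was lower (-3.23 and -1.08). At 10000 reads per cell Itgav stood at -5.04 and 0.10, and without repeat-rich cells at -2.72 and -0.84. Il33 stood at -0.01 and 2.97 when cells counted equally. In the list of interleukin-1 and NF-kappaB genes, Il33 and Il1r2, the decoy receptor for interleukin-1, were the 2 of 7 that met the rule. Il1r2 was read in 2 of 30 and 14 of 55 wound bed cells and in 3 of 28 and 1 of 56 control cells. No ligand of the EGF receptor passed the filter.

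The remaining higher genes by rank had varied roles. Popdc3, a membrane protein that binds cyclic AMP, had 121 and 324 reads in the wound bed and 1 and 17 in control. Tent5a, a poly(A) polymerase, had 317 and 355 reads against 1 and 55. Prkacb, a catalytic subunit of protein kinase A, stood at 171 and 161 CPM against 35.2 and 35.7 CPM. Smim15, a small membrane protein, was at 2.92 and 2.67, and Rnf145, a ubiquitin ligase that acts in sterol control, at 4.14 and 2.12. Ggct, an enzyme of glutathione breakdown, was at 5.12 and 1.98. Ndfip2, an adaptor of Nedd4-family ubiquitin ligases, was at 1.78 and 2.75, Ociad1 at 1.78 and 1.82 and Mplkip at 2.17 and 4.06. With equal weight per cell, Mplkip stood at -0.72 and 4.39, Ndfip2 at 0.41 and 3.45 and Ociad1 at 0.95 and 1.2, which ended the call for these genes. In cells with at least 2000 genes Tent5a stood at 0.10, Cd24a at 0.94 and Ggct at 0.74 in batch 2, and Prkacb at 0.32 in batch 1, so that they missed it there. In basal cells Ggct stood at 0.72 and 1.05 and Ociad1 at 0.32 and 1.52, and both missed the rule.

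**Figure D3:**
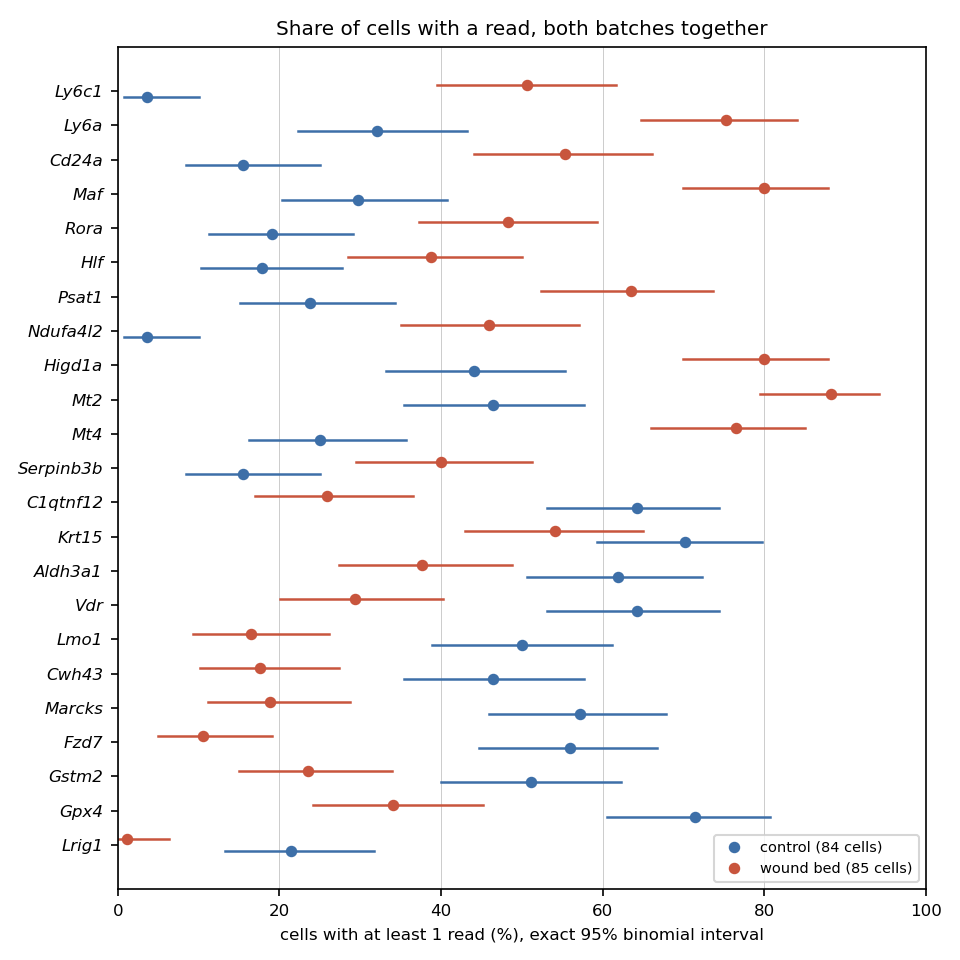
Share of cells with at least 1 read (horizontal axis, percent) for 23 genes, in 84 control and 85 wound bed cells. Bars are exact 95% binomial intervals and cover counting error alone. All reads were used, with a median of 63690 per control cell and 41206 per wound bed cell, so depth was not equal. Ly6c1 was read in 50.6% of wound bed and 3.57% of control cells, and Fzd7 in 10.6% and 56%; the intervals of Krt15 overlap.

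Upper hair follicle genes were lower in the wound bed. Of 12 members considered, 11 were lower in both batches and 7 met the rule downward, with medians of -2.37 and -1.76. Krt79, a keratin of the follicle's duct, stood at 450 and 648 CPM in the wound bed and 2218 and 2629 CPM in control. Lrig1 had 1 and 0 reads in the wound bed plates against 24 and 103 in control, from 1 of 85 and 18 of 84 cells. Aldh3a1, an aldehyde dehydrogenase, was at 42.4 and 82.3 CPM against 224 and 591 CPM (-2.38 and -2.83). Sostdc1, a secreted antagonist of BMP and Wnt signals, stood at 101 and 144 CPM against 340 and 625 CPM. With equal weight per cell it was at -0.82 and -2.21. Fst, an activin inhibitor, and Sox9, a transcription factor of follicle stem cells, met the rule with batch 2 ratios close to its limit (-1.16 and -1.02). Without the deepest cell of each plate these were -0.62 and -0.64, and without repeat-rich cells Sox9 stood at -2.39 and -0.98. Defb6 (-3.63 and -0.33), a defensin, Plet1 (-4.17 and -0.58), Krt17 (-0.20 and -3.84) and Gata6 (-0.68 and -1.50) were lower without meeting the rule. A read of Krt79, Lrig1 or Gata6 was found in 5 of 30 and 11 of 55 wound bed cells, and in 20 of 28 and 30 of 56 control cells. At 10000 reads per cell the shares were 17.9% and 44.6%.

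Of 12 genes of the bulge and outer root sheath, the deeper follicle, 8 were considered and 4 met the rule, all downward. The medians were -2.47 and -0.46, and 2 of the 8, among them Postn, a matrix protein (0.57 and 0.14), were higher in both batches. Lhx2, a transcription factor of bulge stem cells, had no read in either wound bed plate and 45 and 403 reads in control. By the floor of 3 counts it was at least 7.69-fold and 89.0-fold lower. By the same floor, 0 of 30 and 0 of 55 cells allow shares of up to 10% and 5.45%, and 76.2% of the control reads of batch 2 came from 1 cell. Cd200, a surface marker of the bulge, had 1 read in each wound bed plate and 51 and 110 in control. Foxc1, which maintains bulge quiescence, and Col18a1, a basement membrane collagen, met the rule as well, with 2 and 49 reads against 815 and 184 for Foxc1. In cells with at least 2000 genes Foxc1 stood at -6.72 and -0.79 and Col18a1 at 1.05 and -0.94. Krt15, a keratin of bulge and basal cells, stood at 147 and 296 CPM in the wound bed and 893 and 1740 CPM in control (-2.59 and -2.55). Krt15 differed in level more than in detection: 35 of 45 basal wound bed cells and 56 of 65 basal control cells had a read.

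The basal epidermis list as a whole did not differ in this way. Of 18 basal genes considered, Mt2 met the rule upward and Krt15 downward, with medians of -0.13 and 0.92. Krt14 stood at 1843 and 3753 CPM in the wound bed and 3007 and 2937 CPM in control, and Krt5 at 302 and 530 CPM against 354 and 285 CPM. None of the 12 genes for adhesion to the basement membrane met the rule. Of 15 suprabasal genes, Mt4, Dsg1a, a desmosomal cadherin (1.36 and 1.54), and Tgm3, a transglutaminase with 7 and 53 reads against 1 and 2, met the rule upward. Calml3, a calmodulin-like protein, met it downward (-2.82 and -1.04) and stood at -0.99 in batch 2 with DESeq2 size factors. The medians were 1.07 and 0.87. Krt10 stood at 19090 and 13340 CPM against 9047 and 7317 CPM without meeting the rule. In cells with at least 2000 genes Dsg1a stood at 0.27 and 1.14. It was read in 25 of 45 basal wound bed cells and 12 of 65 basal control cells.

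The 3 mu-class glutathione transferases that passed the filter, whose genes lie near each other on chromosome 3 (Gstm5 at chr3:107895821-107898686, Gstm2 at chr3:107981702-107986453, Gstm1 at chr3:108012255-108017973), were all lower in the wound bed. Gstm5 stood at 47 and 163 CPM in the wound bed and 937 and 1369 CPM in control (-4.29 and -3.06). Gstm1 stood at 35 and 54.1 CPM against 432 and 826 CPM (-3.59 and -3.91). Gstm2 stood at 16 and 24.1 CPM against 116 and 207 CPM (-2.78 and -3.05). Each control plate was above both wound bed plates for Gstm1, Gstm2 and Gstm5. Gstm1 shares 15.4% of its 31-base words with other Gstm genes, so part of its count may depend on how reads were assigned, while Gstm5 shares none. Among basal cells Gstm5 was read in 9 of 45 wound bed and 58 of 65 control cells, and among the others in 18 of 40 and 13 of 19.

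Part of the wider glutathione list was lower too. Of 21 members considered none was higher and 6 were lower: the 3 Gstm genes, Gss (glutathione synthetase), Gpx2 and Gpx4. Gpx4, which reduces lipid peroxides, stood at 14.9 and 42.2 CPM against 117 and 161 CPM and was read in 34.1% of wound bed and 71.4% of control cells. Without repeat-rich cells, Gss stood at 2.80 and -3.18. None of the 5 other transferases met the rule, and the medians of the list were -0.70 and -0.47. Of 5 genes of the aryl hydrocarbon receptor pathway, which senses planar aromatic ligands, Ahr itself, Aldh3a1 and Cyp1b1 were lower. Ahr stood at 18.9 and 37.5 CPM against 303 and 234 CPM, and at -3.88 and -0.27 with equal weight per cell. Cyp1b1 stood at -0.97 in batch 2 without repeat-rich cells. Vdr, the vitamin D receptor, was read in 10 of 30 and 15 of 55 wound bed cells against 15 of 28 and 39 of 56 control cells (-3.44 and -1.93). Without repeat-rich cells Vdr stood at 1.09 and -1.88.

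Fzd7, a receptor of Wnt ligands, stood at 33.8 and 7.51 CPM in the wound bed and 454 and 110 CPM in control (-3.71 and -3.71). The share of cells with a Fzd7 read was 10.6% (4.96 to 19.2%) in the wound bed and 56% (44.7 to 66.8%) in control. The 5 Wnt receptors considered had medians of -3.71 and 1.27, on opposite sides of 0. Of 12 Wnt genes considered, Fzd7, Fzd3, Sostdc1 and the ligand Wnt4 met the rule downward, and the receptor Lrp4 and the receptor-removing ligase Znrf3 upward. Lrp4 had 304 and 51 reads against 3 and 20, and stood at 0.21 in batch 2 in basal cells. Without repeat-rich cells Fzd3 stood at -0.01 and -1.81. In basal cells Wnt4 stood at 1.76 and -1.68 and Znrf3 at 1.44 and 0.08. Of 15 genes of BMP and TGF-beta signalling, Fst alone met the rule, and of 6 Notch genes none did, with medians of 0.34 and -0.50.

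Other lower genes by rank included regulators of the membrane and cytoskeleton. Marcks, an actin-binding substrate of protein kinase C, stood at 30.9 and 33.8 CPM against 487 and 339 CPM (-3.93 and -3.29) and was read in 16 of 85 and 48 of 84 cells. Within the list of 26 actin and migration genes, Marcks, Msn and Actg1 met the rule, all downward, with medians of -0.71 and -0.20. Over all genes considered, 8.28% met the rule downward. In basal cells Actg1 stood at -2.23 and -0.99 and missed it. For Msn, moesin, 97.9% of the control reads of batch 1 came from 1 cell, and without repeat-rich cells it stood at 5.46 and -1.62. Lmo1, a LIM-only transcription cofactor, stood at 11.5 and 4.38 CPM against 91.7 and 145 CPM. It was read in 10 of 45 basal wound bed and 40 of 65 basal control cells. Among the others the shares were alike, at 4 of 40 and 2 of 19 cells. Cwh43, which remodels GPI anchors, was at -3.31 and -3.99, Adgrl2, an adhesion receptor of the latrophilin family, at -2.57 and -3.84, and Clca3a2, a chloride channel accessory protein, at -5.06 and -3.56. C1qtnf12, a secreted C1q-like protein, stood at 20.6 and 24.7 CPM against 107 and 108 CPM, in 25.9% and 64.3% of cells. Ano9, a membrane protein of the anoctamin family, had 0 and 55 reads in the wound bed and 262 and 357 in control, and was at least 44.8-fold lower in batch 1. Bola1, a mitochondrial protein, was at -3.08 and -2.25. The 15 lower genes that met the rule under all 12 alternatives were Krt15, Krt79, Aldh3a1, the 3 Gstm genes, Fzd7, Marcks, Lmo1, Cwh43, Adgrl2, Clca3a2, C1qtnf12, Ano9 and Bola1.

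Several further lower genes depended on the repeat-rich cells of control batch 1 or on 1 cell. Rab32 (-4.29 and -4.47), a GTPase of lysosome-related organelles, stood at 0.54 and -4.36 without repeat-rich cells. Rasa1 (-2.12 and -2.11), a Ras GTPase-activating protein, stood at 0.66 and -2.06 without them. Emb (-3.88 and -2.30), a partner of lactate transporters, then stood at -0.86 and -2.23, and Plaa (-5.47 and -2.82), a ubiquitin-binding protein, at -0.90 and -2.41. Usp4 (-4.58 and -2.06), a deubiquitinase, had 92.9% of its control reads of batch 1 in 1 cell and stood at -0.84 and -1.94 without the deepest cell of each plate. Kidins220 (-2.51 and -1.97) stood at 0.33 and -1.62 without its highest cell in each plate. Arid2 (-1.92 and -2.90), a subunit of a chromatin remodeller, was at -0.43 and -2.44 with each cell given the same weight.

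Of 10 genes for antigen presentation considered, H2-K1, a class I heavy chain, and Tap1, the peptide transporter, met the rule downward and none met it upward. Ratios of 9 of the 10 were below 0 in both batches, against 1582 of all 5776 genes. H2-K1 stood at 111 and 34.1 CPM against 410 and 245 CPM (-1.88 and -2.81) and at -0.61 and -1.99 when cells counted equally. At 10000 reads per cell H2-K1 stood at -0.26 and -2.43, and without its highest cell in each plate at -0.40 and -2.94. Tap1 stood at -0.83 and -4.78 in cells with at least 2000 genes. The medians of the list were -0.95 and -1.03.

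Cell contacts and the cell cycle gave mixed calls. Gjb6, a connexin of gap junctions, met the rule upward, with 72 and 435 reads against 0 and 157. Of 14 desmosome and cadherin genes, Dsg1a was higher, and Dsg2, Evpl and Pkp3, which join or anchor desmosomes, were lower. Without repeat-rich cells Dsg2 stood at 0.98 and -3.51 and Evpl at -0.34 and -3.03. In basal cells Pkp3 stood at -1.48 and -0.89. Of 17 cell cycle genes, Mki67, Top2a and Birc5, made in dividing cells, and Cdkn2b, an inhibitor of G1 kinases, were higher, and Mcm3 and Cdkn1b lower. Without repeat-rich cells Mki67 stood at 0.16 and 1.66, Top2a at -0.10 and 3.48, Birc5 at 0.65 and 1.59, Mcm3 at 0.37 and -2.05 and Cdkn1b at 1.41 and -1.07, so that none of these 5 kept its call. Mki67 was read in 4 of 30 and 16 of 55 wound bed cells and 3 of 28 and 10 of 56 control cells, and stood at 0.88 and 0.64 without the deepest cell of each plate, where Top2a stood at 0.75 and 1.22 and Birc5 at 0.35 and -0.51. Cdkn2b was read in 23.5% of wound bed and 3.57% of control cells, and stood at 3.77 and 0.95 in basal cells.

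**Figure D4:**
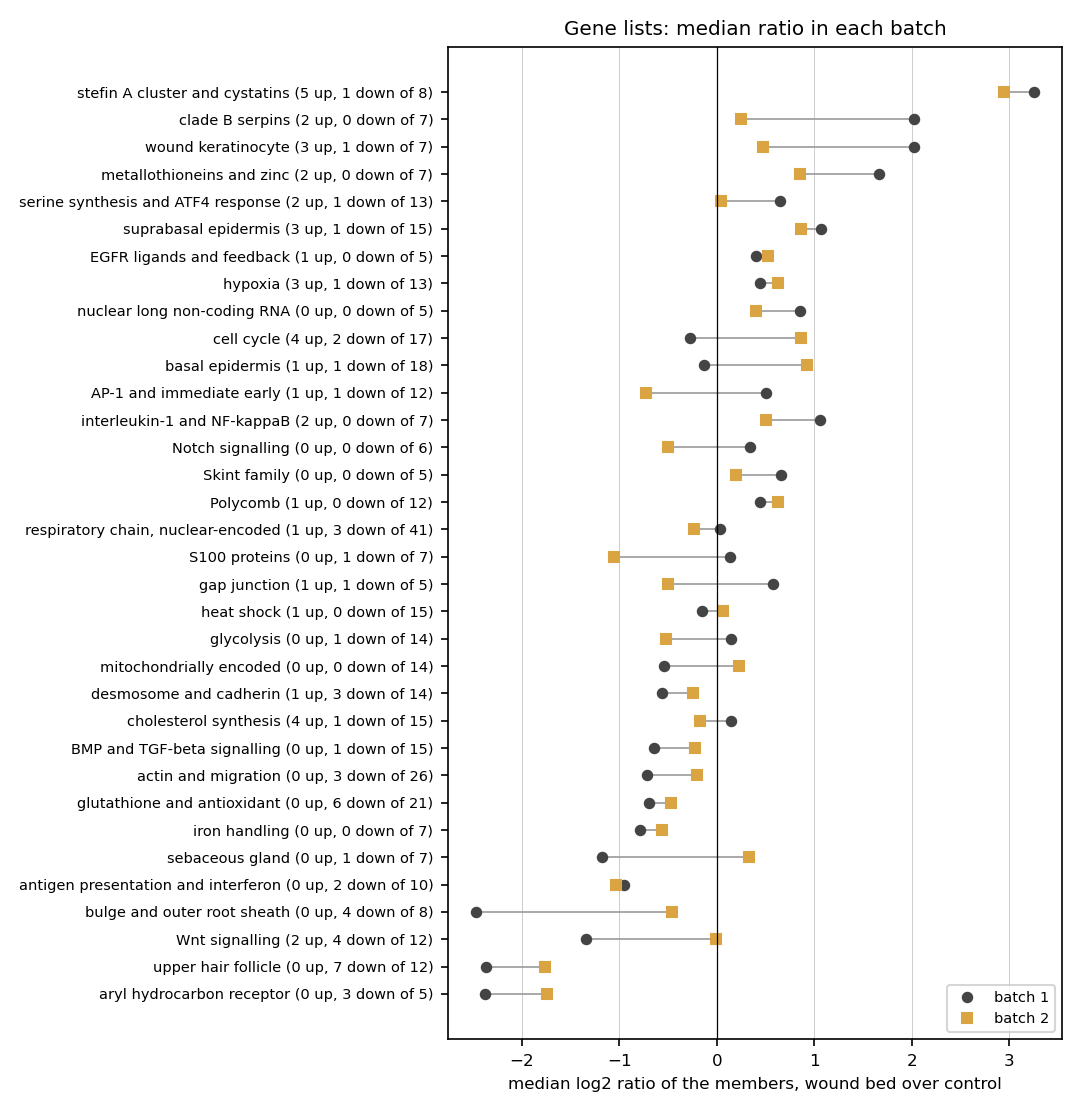
Median log2 ratio (horizontal axis) of the considered members of each of 34 keratinocyte gene lists, in batch 1 (circles) and batch 2 (squares), with the number that met the size rule in each direction. The lists were chosen with earlier results of these data known. The stefin and cystatin list lies highest, at 3.25 and 2.94, while its 3 cystatins other than stefin A had medians of -0.89 and -1.07. The upper hair follicle (-2.37 and -1.76) and aryl hydrocarbon receptor (-2.38 and -1.74) lists lie far to the left in both batches. Both of these lists hold Aldh3a1, and 2 of the 5 aryl hydrocarbon receptor genes had ratios of opposite sign in the batches.

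Further lists had few or no members past the rule, which 16.2% of all genes considered met in either direction. Such small counts are not read as a result about these lists. None of the 14 mitochondrially encoded transcripts, 5 Skint genes, 7 iron genes and 5 nuclear long non-coding RNAs met the size rule. Of 12 genes of AP-1 and the immediate early response, Fos met it upward and Egr2 downward (-3.63 and -1.02, with -0.97 in batch 2 under DESeq2 size factors). In 15 heat shock genes, Hspa1a was higher, with 57 and 23 reads against 3 and 9, but stood at 2.48 and -0.55 at 10000 reads per cell and at -1.19 and 1.86 in basal cells. Jarid2 was higher among 12 Polycomb genes, Spry2 among 5 EGF receptor pathway genes, S100a6 lower among 7 S100 genes (-1.68 and -1.65) and Far1 lower among 7 sebaceous gland genes. In cells with at least 2000 genes Jarid2 stood at 4.69 and -0.15, Spry2 at -0.66 and 1.23 and Fos at 2.94 and -0.83. When cells counted equally Far1 stood at 0.84 and -1.41.

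The stefin A and Gstm transcripts were also counted together in each cell. Both sets were chosen because they differed between the regions, so the counts are a description. In the wound bed, 37 of 85 cells had stefin A reads and no Gstm read, 41 had both and 7 had Gstm reads alone. In control, 9 of 84 cells had stefin A reads alone, 27 had both and 48 had Gstm reads alone. Every one of the 169 cells had a read of at least 1 of the 8 genes. At 10000 reads per cell, neither set was read in 3 of 78 wound bed cells and in 5 of 83 control cells.

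**Figure D5:**
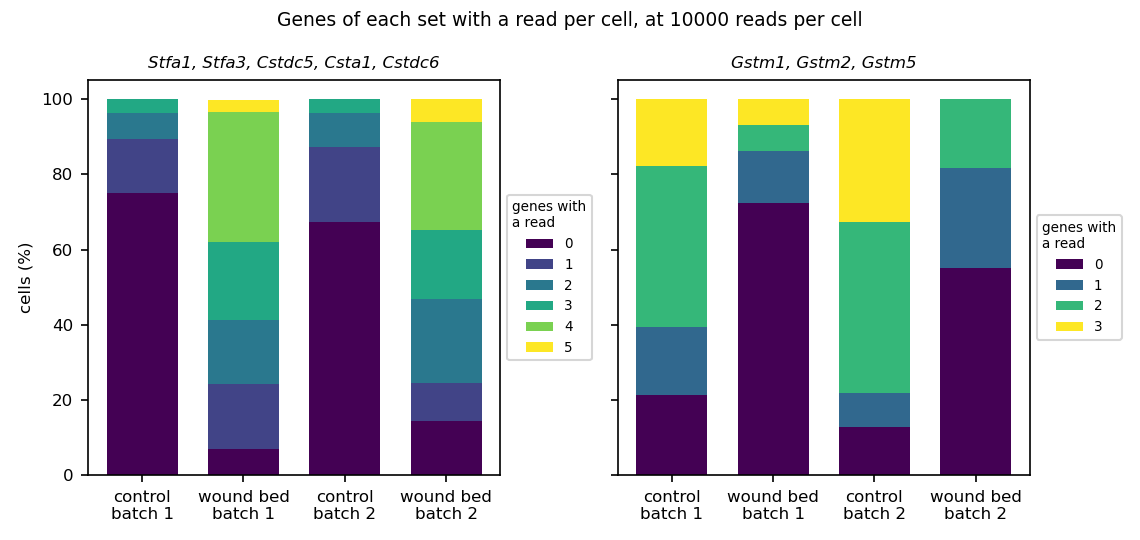
Stacked bars give the percent of cells of each plate (vertical axis) by the number of stefin A genes (left, 5 genes) or Gstm genes (right, 3 genes) with a read, after thinning each cell to 10000 reads. At least 2 stefin A genes were read in 75.6% of wound bed and 12% of control cells, and at least 2 Gstm genes in 16.7% and 72.3%.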

How the data were processed

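The deposited table holds whole-number read counts per gene and cell, with 27003 gene symbols (5495 without a read) and 250 cells. Tools listed in the submitters' processing notes are Salmon 0.13.1, R 4.0.3 and Seurat, on mm10 (GRCm38), without their roles. How transcripts were summed and rounded was not given in the sources used here.

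Counts of the 169 cells were summed per plate and scaled by TMM (edgeR 4.0.16, R 4.3.3). The ratios, the detection filter and the size rule are those defined in the report. No cell was left out, no doublets were called and no free RNA was subtracted. For equal depth, cells were thinned to 10000 reads, which left out 7 wound bed cells and 1 control cell. Intervals are Clopper-Pearson for shares and Poisson for reads. A gene without reads has a floor of 3 counts. Both cover counting error only, since PCR copies cannot be told from separate molecules.

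The members, the 41 gene lists and the size rule were chosen with earlier results of these data known. Named genes were up to 25 per direction by the criteria in the report, leaving out predicted, ribosomal protein and mitochondrial genes, up to 6 members per list that met the size rule, and a few fixed markers. Of 717 list genes, 43 had no row. Plate scaling, cell subsets, filters and the pseudocount of 1 CPM were varied. The ratio calculation was tested on simulated data. Positions and 31-base words came from GENCODE M21, in which 114 of the named genes matched and 2 did not. Some genes are not reported here.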

Additional observations from a re-analysis of the deposited data

How the results depend on the processing

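The main counts were 455 higher and 478 lower genes. They were 863 and 870 in cells with at least 2000 genes, which are few per plate, and 324 and 238 at 10000 reads per cell, where 3577 genes passed the filter. They were 1677 and 1607 in batch 1 alone, 1204 and 1354 in batch 2 alone, 949 and 1059 without a detection filter, 115 and 133 with one of 25% and 30 and 38 with one of 50%. Under the other scalings, cell subsets and the pseudocount of 5 both counts were within 1.5 times the main ones. Without TMM the median ratio of all genes moved to 0.40 and -0.14. Alternatives chosen after seeing the data left out repeat-rich cells (665 and 421), the 4 repeat-like genes (456 and 477) or each gene's highest cell in each plate (563 and 418). Mean ratios that changed sign, with the cause not tested, were as follows. In basal cells these were Acsl1 at -0.83, Il33 at -0.31, Wnt4 at 0.04 and Msn at 0.47. Without repeat-rich cells Shmt1 stood at 1.09, Ndrg1 at 1.05, Cdkn1b at 0.17 and Msn at 1.92. Msn stood at 0.05 without its highest cell, Birc5 at -0.08 without the deepest cells, Col18a1 at 0.06 in cells with at least 2000 genes and Far1 at 0.05 at 10000 reads. The basal list median was -0.13 in batch 1 alone, and that of the respiratory chain was 0.04 without TMM, 0.02 without the deepest cells and 0.04 in batch 1 alone. No paired analysis was possible because no test was run, and the ratios were already taken within each batch. Genes with a few reads per plate, such as Lrig1 and Cstdc6, are limited by depth.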
